A study of Rattus norvegicus with 9 samples.

Results

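The genes described here are 10 genes of the endoplasmic reticulum (ER) folding machinery and its stress response: Hspa5, Hsp90b1, Xbp1, Dnajb9, Herpud1, Pdia4, Canx, Calr, Sdf2l1 and Creld2. They were chosen by gene symbol as known members of the unfolded protein response, and all 10 were found among the 14607 genes listed in at least 1 library. The cells, labelled as cardiomyocytes, were freed by enzyme digestion from hearts of newborn SD rats, 1 to 2 days old. Each culture received a lentivirus for 16 h and was then kept for 48 h in medium with serum. The lenti-TCF7L2 group (3 libraries) carried TCF7L2, the Wnt pathway transcription factor, for overexpression. The lenti-shTCF7L2 group (3 libraries) carried a hairpin against TCF7L2, and the lenti-NC group (3 libraries) carried the vector control. The labels give neither the promoter nor the species of the TCF7L2 insert, and they do not say whether replicates came from separate isolations, so p-values measure only the spread between these libraries. Poly(A) RNA was sequenced, and no protein or splice form was measured.

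The unfolded protein response senses misfolded proteins in the ER. The HSP70 chaperone BiP, encoded by Hspa5, binds the sensors IRE1, PERK and ATF6 and leaves them when unfolded proteins accumulate. IRE1 splices the Xbp1 mRNA, ATF6 is cut to release a transcription factor, and PERK slows translation while favouring ATF4. XBP1 and cleaved ATF6 then raise transcription of chaperones, disulfide isomerases and degradation factors, in part through ER stress response elements (ERSE) in their promoters. In heart muscle the same compartment, as sarcoplasmic reticulum, also stores calcium, which calreticulin and other lumenal chaperones bind.

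The promoters are shown first because a shared element is what links these genes in textbook accounts. RefSeq promoter windows (build GRCr8, 250 bases before to 50 bases after a gene start) were found for all 10 genes. The window covers 1 start per gene. Both strands were searched for the ERSE letters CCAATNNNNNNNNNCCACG, the ERSE-II letters ATTGGNCCACG, the core TGACGTG of the XBP1 element and the core CTTTGAT bound by TCF and LEF factors. The ERSE letters were found in 6 of the 10 promoters: those of Hspa5, Hsp90b1, Xbp1, Canx, Calr and Creld2. In the promoters of all tested genes they were found in 16 of 9572 (0.167%), and in all RefSeq promoters in 21 of 27457 (0.0765%). Since the genes were chosen as known members of the response, this share is a description and was not tested. The matches follow on the strand of the motif, with the fixed letters in capitals.
Hspa5, bases -43 to -25: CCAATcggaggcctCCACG
Hsp90b1, bases -176 to -158: CCAATcgaaaggagCCACG
Hsp90b1, bases -72 to -54, minus strand: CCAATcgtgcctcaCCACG
Xbp1, bases -65 to -47: CCAATcgcagacggCCACG
Canx, bases -230 to -212: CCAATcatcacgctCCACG
Calr, bases -232 to -214, minus strand: CCAATcagggtcgaCCACG
Creld2, bases -145 to -127, minus strand: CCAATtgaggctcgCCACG
Herpud1, ERSE-II, bases -124 to -114: ATTGGgCCACG
Positions count from the gene start on the gene's strand. The ERSE-II letters were found in Herpud1 alone of the 10, and in 9 of 9572 promoters of tested genes (0.0940%). The XBP1 core was found in Hspa5 alone of the 10, at bases -135 to -129, and in 2.52% of the promoters of tested genes. The TCF and LEF core was found in 0 of the 10 windows and in 2.15% of the promoters of tested genes. A match is a description of letters, and no match says only that these letters are not in this window. Dnajb9, Pdia4 and Sdf2l1 held none of the 4 motifs.

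Whole windows are given for the 4 genes on which the comparisons turn: Calr and Creld2, higher in lenti-TCF7L2 cells, Canx, lower there, and Hspa5, the defining chaperone. Capitals mark the ERSE letters and their spacer. The windows are chr19:40213117-40213416 on the plus strand for Calr, chr7:121789134-121789433 on the plus strand for Creld2, chr10:35157808-35158107 on the minus strand for Canx and chr3:38452766-38453065 on the plus strand for Hspa5, all in GRCr8.
Calr: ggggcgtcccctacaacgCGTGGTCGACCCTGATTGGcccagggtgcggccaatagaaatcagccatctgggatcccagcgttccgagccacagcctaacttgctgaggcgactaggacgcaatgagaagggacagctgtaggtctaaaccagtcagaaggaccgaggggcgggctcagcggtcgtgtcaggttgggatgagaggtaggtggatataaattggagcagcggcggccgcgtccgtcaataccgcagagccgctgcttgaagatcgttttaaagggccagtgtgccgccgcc
Creld2: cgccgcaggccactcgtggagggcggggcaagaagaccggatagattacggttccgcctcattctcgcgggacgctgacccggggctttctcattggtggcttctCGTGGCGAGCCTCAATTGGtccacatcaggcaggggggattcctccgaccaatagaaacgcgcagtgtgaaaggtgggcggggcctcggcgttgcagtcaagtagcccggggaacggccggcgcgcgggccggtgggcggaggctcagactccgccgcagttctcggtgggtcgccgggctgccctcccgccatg
Canx: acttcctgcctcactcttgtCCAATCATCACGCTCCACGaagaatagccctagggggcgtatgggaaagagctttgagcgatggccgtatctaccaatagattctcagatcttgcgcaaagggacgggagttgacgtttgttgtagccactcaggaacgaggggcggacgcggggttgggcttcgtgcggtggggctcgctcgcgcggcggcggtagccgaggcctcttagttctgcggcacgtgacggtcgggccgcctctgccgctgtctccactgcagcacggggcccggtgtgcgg
Hspa5: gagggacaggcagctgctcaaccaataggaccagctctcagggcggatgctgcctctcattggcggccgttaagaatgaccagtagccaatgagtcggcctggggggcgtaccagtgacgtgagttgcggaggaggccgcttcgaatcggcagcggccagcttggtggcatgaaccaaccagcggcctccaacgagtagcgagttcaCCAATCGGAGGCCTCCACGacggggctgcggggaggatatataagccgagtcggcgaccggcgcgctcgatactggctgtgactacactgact
Canx, which differed in the opposite direction from Calr, held the same fixed ERSE letters at nearly the same distance from its start as Calr did, on the opposite strand.

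Each library held 15085922 to 16478295 expected counts (estimated fragments per gene) over 13294 to 13421 listed genes. Tcf7l2 itself had 2251, 3240 and 1434 expected counts in lenti-TCF7L2 libraries, 388, 465 and 391 in lenti-shTCF7L2 libraries, and 595, 540 and 510 in lenti-NC libraries. Its log2 difference was 1.97 for lenti-TCF7L2 against lenti-NC (SE 0.27, edgeR quasi-likelihood test, adjusted p = 0.000846) and -0.43 for lenti-shTCF7L2 against lenti-NC (SE 0.27, adjusted p = 0.511), without overlap in either case. One library stood apart: lenti-TCF7L2 replicate 3 differed from the mean of lenti-NC by gene length, with a median log2 difference of 0.49 over 1093 genes of up to 1000 bases and -0.98 over 187 genes longer than 8000 bases. The same medians were 0.14 and -0.33 in replicate 1, and -0.07 and -0.007 in replicate 2. Summed markers of cardiomyocytes (7 of 8 analysed here, titin not among them, and 6 of the 7 lower in lenti-TCF7L2 against lenti-NC) reached 12780 to 15900 CPM (counts scaled to a common library size) in lenti-TCF7L2, 26870 to 28150 in lenti-shTCF7L2 and 29000 to 31080 in lenti-NC libraries. Calls in brackets here and for the next markers are for lenti-TCF7L2 against lenti-NC. Fibroblast markers (4 of 8 higher, 1 lower) summed to 37160 to 44620 CPM in lenti-TCF7L2, 37460 to 39460 in lenti-shTCF7L2 and 34390 to 35540 in lenti-NC libraries. In lenti-shTCF7L2 against lenti-NC, 0 of these 8 were higher and 3 lower, with a median log2 difference of -0.46. Col1a1, the most counted of them, held 1066919 counts in lenti-shTCF7L2 and 815887 in lenti-NC libraries. Endothelial markers (7 of 8 higher) summed to 143 to 214 CPM in lenti-TCF7L2, 72.0 to 74.5 in lenti-shTCF7L2 and 70.6 to 92.9 in lenti-NC libraries. Smooth muscle markers (1 of 6 higher) summed to 6519 to 7728 CPM in lenti-TCF7L2, 6922 to 7109 in lenti-shTCF7L2 and 7220 to 7298 in lenti-NC libraries. Macrophage markers (4 of 6 higher) summed to 68.4 to 74.6 CPM in lenti-TCF7L2, 33.4 to 36.5 in lenti-shTCF7L2 and 36.3 to 38.5 in lenti-NC libraries. No marker analysed had a sum of 0 in any group. In bulk RNA, fewer cells of a type and less RNA per cell cannot be told apart, and the part of cell make-up in the results below was not tested.

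All 10 genes were well expressed, and the lectin chaperone Calr led in every group. On the FPKM scale, which divides by gene length and so allows levels of different genes to be compared, Calr averaged 828 ± 129 in lenti-TCF7L2, 619 ± 13.7 in lenti-shTCF7L2 and 607 ± 21.6 in lenti-NC libraries (SD, n = 3 each). That placed Calr above 98.8% of the tested genes in each group. Hspa5 followed with 363 ± 52.7 FPKM in lenti-TCF7L2, 342 ± 8.09 in lenti-shTCF7L2 and 307 ± 9.47 in lenti-NC libraries. Hsp90b1, the HSP90 of the ER, had 305 ± 48.7 FPKM in lenti-TCF7L2, 278 ± 5.84 in lenti-shTCF7L2 and 256 ± 8.995 in lenti-NC libraries. In lenti-NC libraries, the mean of Hspa5 exceeded that of 97.82% of the tested genes and the mean of Hsp90b1 that of 97.46%. The membrane lectin Canx came next with 130 ± 11.5 FPKM in lenti-TCF7L2, 183 ± 2.36 in lenti-shTCF7L2 and 172 ± 3.62 in lenti-NC libraries, ahead of the disulfide isomerase Pdia4 with 111 ± 7.80 FPKM in lenti-TCF7L2, 90.2 ± 4.25 in lenti-shTCF7L2 and 91.1 ± 3.14 in lenti-NC libraries. Regulators and co-factors sat lower. Xbp1 averaged 81.4, 68.4 and 66.0 FPKM in lenti-TCF7L2, lenti-shTCF7L2 and lenti-NC libraries, and Herpud1 57.2 FPKM in lenti-TCF7L2, 55.0 in lenti-shTCF7L2 and 52.6 in lenti-NC libraries. Sdf2l1 averaged 44.0 FPKM in lenti-TCF7L2, 33.4 in lenti-shTCF7L2 and 31.0 in lenti-NC libraries. Creld2 averaged 29.0 FPKM in lenti-TCF7L2, 23.0 in lenti-shTCF7L2 and 18.2 in lenti-NC libraries, and Dnajb9 17.8 FPKM in lenti-TCF7L2, 19.4 in lenti-shTCF7L2 and 18.2 in lenti-NC libraries. In lenti-shTCF7L2 libraries no neighbours in this order overlapped, whereas in lenti-NC libraries Dnajb9 and Creld2 did. In lenti-TCF7L2 libraries the ranges of Hspa5 and Hsp90b1, of Canx and Pdia4, of Herpud1 and Sdf2l1 and of Sdf2l1 and Creld2 overlapped.

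**Figure D1:**
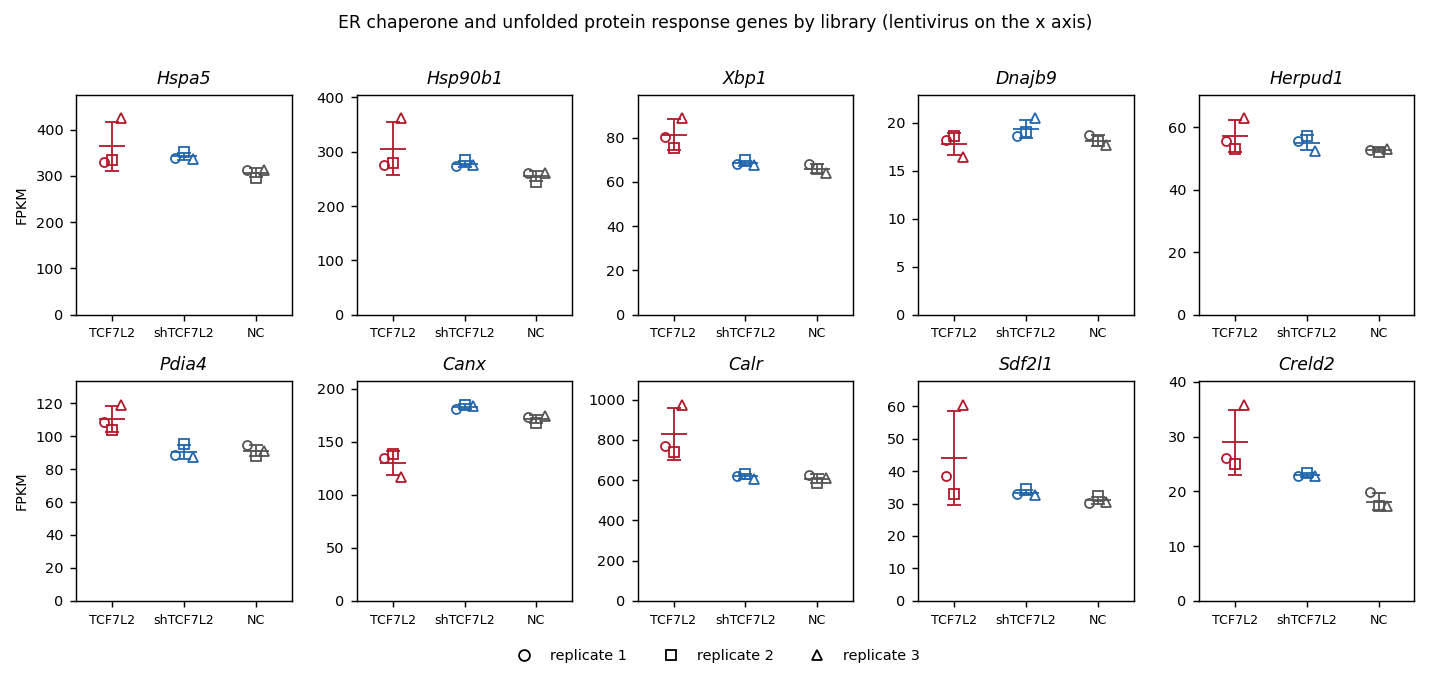
FPKM (y axis, from 0, its own scale in each panel) of each of the 10 genes in the 3 lenti-TCF7L2, 3 lenti-shTCF7L2 and 3 lenti-NC libraries (x axis); symbols are replicates, bars are means with SD (n = 3). The triangle of lenti-TCF7L2 replicate 3 is the highest of the 9 libraries for 8 genes and the lowest for Canx and Dnajb9, and for Canx all lenti-TCF7L2 libraries (117 to 139 FPKM) lie below all lenti-NC libraries (167 to 174 FPKM).

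In lenti-TCF7L2 against lenti-NC cells, 4 of the 10 genes rose and 1 fell. The risers were Creld2, Calr, Xbp1 and Pdia4, and the gene that fell was Canx. Of all 11761 tested genes, 18% were higher and 13.8% lower by the same call; the share among the 10 was not tested against these. The other 5 genes, which include the chaperones Hspa5 and Hsp90b1, did not pass. The groups did not overlap for 7 of the 10 genes, against 46.8% of all tested genes. The median log2 difference of the 10 was 0.22, and that of all tested genes 0.03. Differences here and below are log2 ratios of normalised counts from edgeR's quasi-likelihood fit of all 9 libraries, with Benjamini-Hochberg adjustment over all tested genes.

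The 2 lectin chaperones differed in opposite directions. Calreticulin (Calr) and calnexin (Canx) both hold newly made glycoproteins that carry a trimmed sugar, Calr free in the lumen and Canx anchored in the membrane. Calr had 1410, 1355 and 1796 CPM in lenti-TCF7L2 libraries, against 1191, 1111 and 1159 CPM in lenti-NC libraries. Every lenti-TCF7L2 library was above every lenti-NC library, and replicate 3 was far above the other two. Calr rose by 0.40 on the log2 scale (SE 0.11, 95% interval 0.16 to 0.64, adjusted p = 0.0203), a fold of 1.32. Without lenti-TCF7L2 replicate 3 the difference was 0.24 (adjusted p = 0.00289), and without lenti-NC replicate 1, 2 or 3 the adjusted p was 0.0541, 0.0788 or 0.0654. With only the 6 libraries compared it was 0.0844.

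Canx had 669, 688 and 583 CPM in lenti-TCF7L2 libraries, against 890, 862 and 896 CPM in lenti-NC libraries. All 3 lenti-TCF7L2 libraries were low, with no overlap. Canx fell by 0.45 on the log2 scale (SE 0.08, 95% interval -0.62 to -0.28, adjusted p = 0.00239), and its difference stayed between -0.50 and -0.40 when any 1 library was left out. Canx, at 4986 bases, is the longest of the 10 genes, the others being 1064 to 2803 bases long. With a length adjustment in every library its difference was -0.19 and the call was lost (adjusted p = 0.141). With that adjustment and without lenti-TCF7L2 replicate 3, the library with the strongest length trend, it was -0.31 (adjusted p = 0.000142). The ratio of Calr to Canx in FPKM, a pair picked after its values were seen, was 5.70, 5.34 and 8.33 in lenti-TCF7L2, 3.44, 3.42 and 3.28 in lenti-shTCF7L2, and 3.62, 3.49 and 3.50 in lenti-NC libraries. Calr has 1865 bases, so a length trend enters this ratio through both genes. In lenti-TCF7L2 replicate 3 the median log2 difference from lenti-NC was 0.29 for genes of 1000 to 2000 bases and -0.52 for those of 4000 to 8000. The part of the trend in the ratio was not tested.

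Creld2, an ER-resident protein induced by ER stress, showed the largest difference among the 10. It had 34.9, 33.4 and 48.1 CPM in lenti-TCF7L2 libraries, against 27.5, 23.98 and 23.9 CPM in lenti-NC libraries. The groups did not overlap, and replicate 3 was again the highest. Creld2 rose by 0.63 on the log2 scale (SE 0.14, 95% interval 0.31 to 0.94, adjusted p = 0.00894), and by 0.43 without lenti-TCF7L2 replicate 3 (adjusted p = 0.000873). The call was kept in every alternative run for it. In RefSeq, Creld2 overlaps Alg12, and without strand in the counting, which the sources used here do not give, reads of overlapping genes cannot be told apart. Dnajb9, Herpud1 and Canx also overlap another annotated gene. Sdf2l1, a lumenal partner of the BiP co-chaperone DNAJB11, had 39.7, 34.0 and 62.6 CPM in lenti-TCF7L2 libraries, against 32.3, 34.5 and 32.4 CPM in lenti-NC libraries. Its groups overlapped, with lenti-TCF7L2 replicate 2 inside the lenti-NC range, and its log2 difference of 0.46 (95% interval 0.02 to 0.90) did not pass (adjusted p = 0.0995). Without that replicate 2 it was 0.62 and passed (adjusted p = 0.0153), and without replicate 3 it was 0.14 (adjusted p = 0.196).

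Xbp1 encodes the transcription factor that IRE1 switches on by splicing, and the counts sum its spliced and unspliced forms. It had 147, 138 and 163 CPM in lenti-TCF7L2 libraries, against 129, 125 and 122 CPM in lenti-NC libraries, without overlap. Xbp1 rose by 0.25 on the log2 scale (SE 0.07, 95% interval 0.08 to 0.42, adjusted p = 0.0303). That call rested on narrow margins: it was lost on leaving out lenti-TCF7L2 replicate 1 (adjusted p = 0.0816), any lenti-shTCF7L2 library (0.0548 to 0.0705) or any lenti-NC library (0.0665 to 0.107), and with only the 6 libraries compared (0.118). Without lenti-TCF7L2 replicate 3 it was 0.16 (adjusted p = 0.0348). Pdia4, a disulfide isomerase of the lumen, had 258, 245 and 283 CPM in lenti-TCF7L2 libraries, against 231, 216 and 223 CPM in lenti-NC libraries. The groups did not overlap, and Pdia4 rose by 0.23 (SE 0.07, 95% interval 0.06 to 0.39, adjusted p = 0.0405). Leaving out any 1 library other than lenti-TCF7L2 replicate 2 ended that call, with adjusted p between 0.0519 and 0.138; without replicate 3 the difference was 0.15. The Pdia4 call was also lost with RLE scaling (adjusted p = 0.0524), with no filter on low counts (0.0601) and with only the 6 libraries compared (0.13).

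Hspa5, Hsp90b1, Herpud1 and Dnajb9 did not pass. Hspa5 (0.19) and Hsp90b1 (0.21) differed nearly as much as Pdia4 (0.23), but with SEs of 0.10 and 0.11 against 0.07. Hspa5 had 844, 854 and 1086 CPM in lenti-TCF7L2 libraries, against 826, 784 and 826 CPM in lenti-NC libraries. The groups did not overlap, yet replicates 1 and 2 lay just above the lenti-NC libraries and only replicate 3 was clearly higher. The log2 difference of Hspa5 was 0.19 (SE 0.10, 95% interval -0.03 to 0.42, adjusted p = 0.168), and 0.05 without replicate 3. Hsp90b1 had 764, 775 and 1007 CPM in lenti-TCF7L2 libraries, against 751, 706 and 749 CPM in lenti-NC libraries. Its log2 difference was 0.21 (95% interval -0.03 to 0.45, adjusted p = 0.164), and 0.05 without replicate 3. The ratio of Hspa5 to Hsp90b1 in FPKM was nearly constant, at 1.173 to 1.202 in lenti-TCF7L2, 1.217 to 1.24 in lenti-shTCF7L2 and 1.197 to 1.208 in lenti-NC libraries. Herpud1, a membrane protein of the degradation complex, had 102, 96.8 and 115 CPM in lenti-TCF7L2 libraries, against 99.7, 98.3 and 101 CPM in lenti-NC libraries. Its log2 difference was 0.07 (95% interval -0.10 to 0.25, adjusted p = 0.500). Dnajb9, a J-domain co-chaperone of BiP and a known XBP1 target, had 34.7, 35.4 and 31.5 CPM in lenti-TCF7L2 libraries, against 36.9, 35.7 and 34.9 CPM in lenti-NC libraries. Both genes overlapped between groups, and the log2 difference of Dnajb9 was -0.08 (95% interval -0.26 to 0.10, adjusted p = 0.456).

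**Figure D2:**
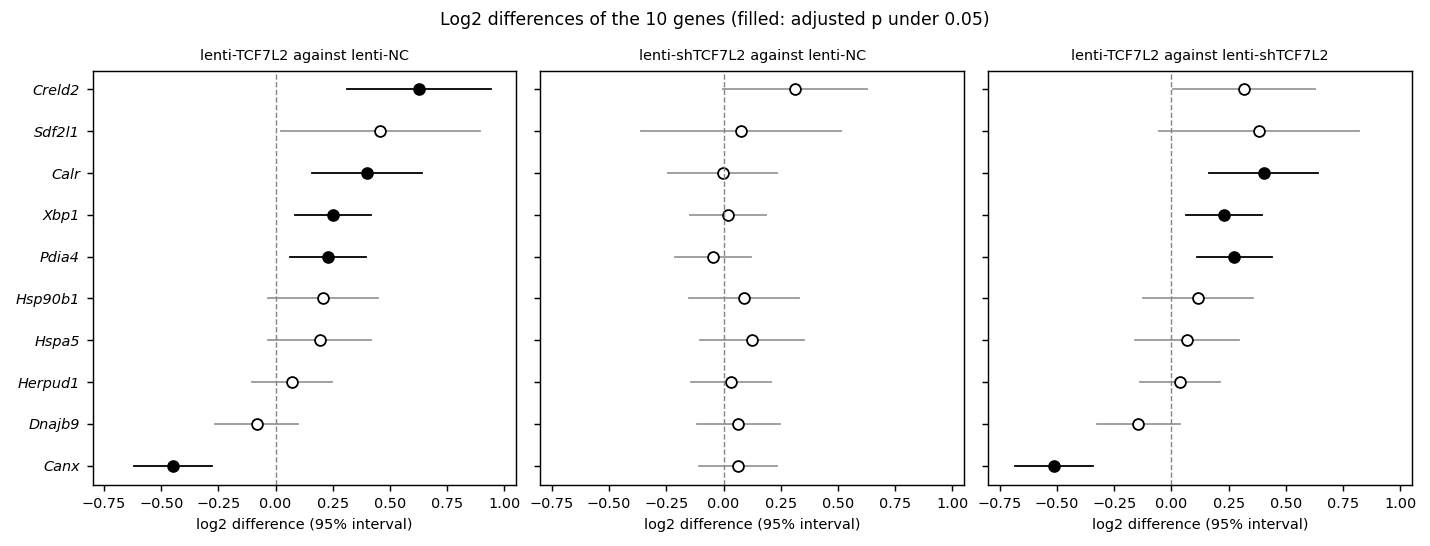
Log2 differences (x axis) with 95% intervals for the 10 genes (rows) in each comparison, from edgeR's quasi-likelihood fit; filled points have an adjusted p under 0.05. Creld2, Calr, Xbp1 and Pdia4 lie right of 0 and Canx left of 0 for lenti-TCF7L2 against lenti-NC, and no point is filled for lenti-shTCF7L2 against lenti-NC.

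Several differences were larger in lenti-TCF7L2 replicate 3 than in the other 2 libraries of its group. Relative to the average lenti-NC library, log2 CPM in replicates 1, 2 and 3 differed by 0.26, 0.04 and 0.92 for Sdf2l1, by 0.48, 0.41 and 0.94 for Creld2 and by 0.06, 0.07 and 0.42 for Hspa5. For Canx these differences were -0.40, -0.36 and -0.60. In replicate 3, genes of 1000 to 2000 bases had a median difference of 0.29, genes of 2000 to 4000 bases -0.04 and genes of 4000 to 8000 bases -0.52. Sdf2l1, Creld2, Calr, Xbp1, Hspa5, Hsp90b1 and Pdia4 lay above the median of their length class in replicate 3, and Herpud1 and Dnajb9 below theirs. Canx lay close to its own there (-0.60 against -0.52) but below it in replicate 2 (-0.36 against 0.04). With the length adjustment over all 9 libraries, Creld2 (0.53, adjusted p = 0.00838) and Calr (0.35, adjusted p = 0.0286) were the only 2 of the 10 called. With the adjustment and without replicate 3, Creld2 (0.38), Calr (0.19) and Pdia4 (0.14) were higher and Canx lower. The part of the length trend in these values was not tested further.

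**Figure D3:**
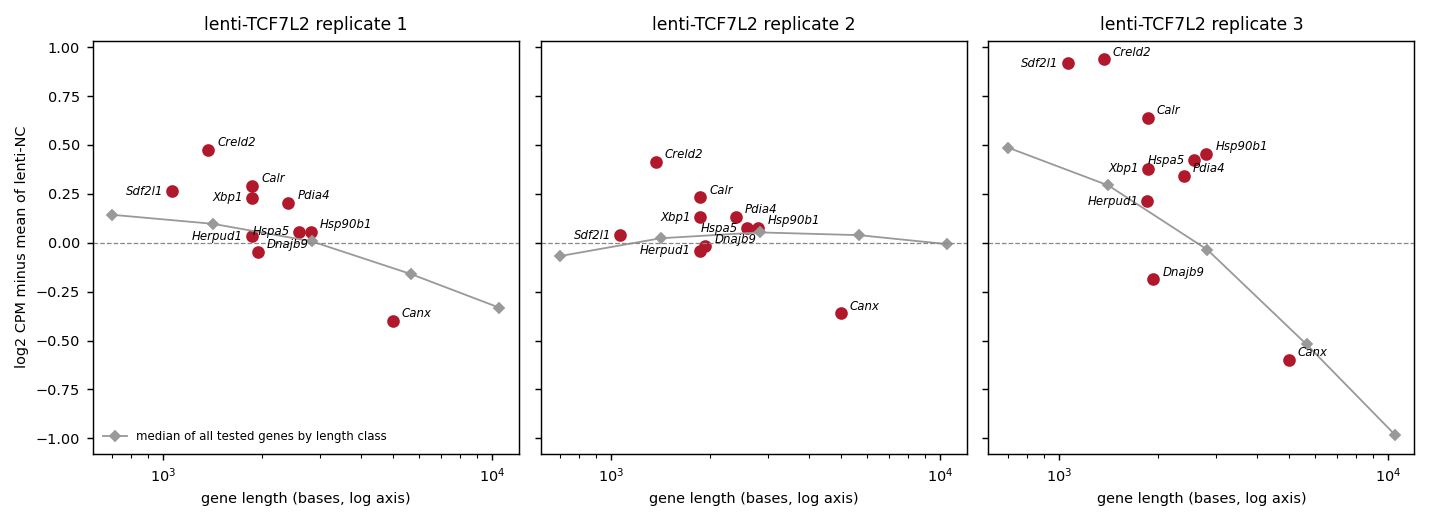
Difference of log2 CPM from the mean of lenti-NC (y axis) against gene length in bases (x axis, log scale) in each lenti-TCF7L2 library; red points are the 10 genes and grey diamonds the median of all tested genes in 5 length classes, placed near the middle of each class. The grey line falls from 0.49 to -0.98 in replicate 3 and is nearly flat in replicate 2, where Creld2, Calr and Canx keep their sides of 0.

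**Figure D4:**
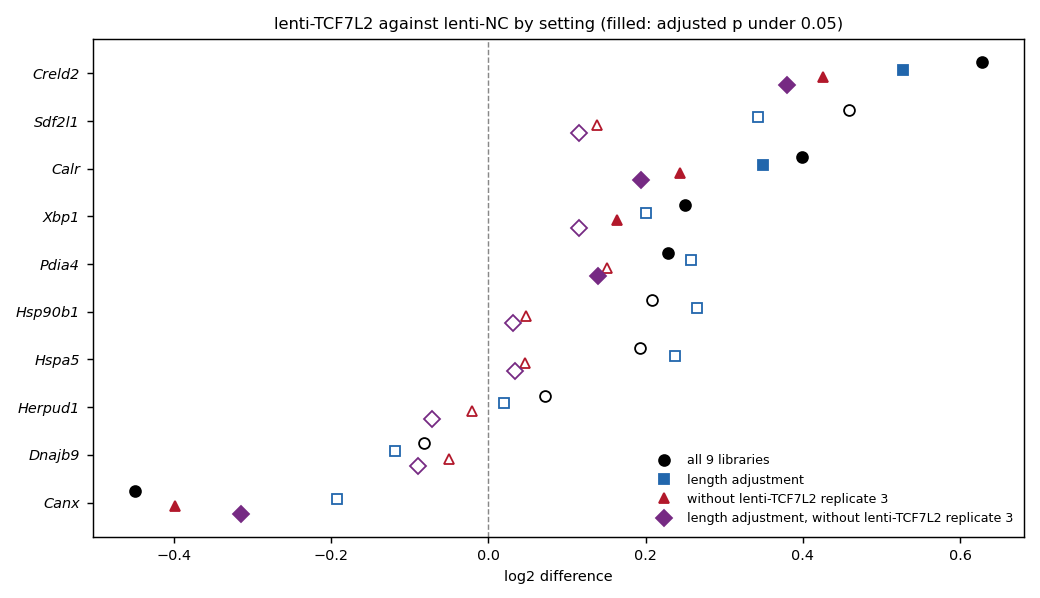
Log2 difference of lenti-TCF7L2 against lenti-NC (x axis) for the 10 genes (rows) under 4 settings, filled where the adjusted p is under 0.05. Creld2 and Calr are filled in all 4, Canx in all but the length adjustment with 9 libraries, and Hspa5 and Hsp90b1 in none.

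In lenti-shTCF7L2 against lenti-NC cells, none of the 10 genes passed the test in the fit of all 9 libraries. By edgeR 0 of the 10 were called, 0 had an unadjusted p under 0.05, and DESeq2 and limma likewise called 0. Of all tested genes, 1.32% were called higher and 2.32% lower. The log2 differences ran from -0.05 for Pdia4 to 0.31 for Creld2, with a median of 0.06 against 0.008 over all tested genes. For Hspa5, Hsp90b1, Canx and Creld2 the groups did not overlap, all 4 with lenti-shTCF7L2 above lenti-NC, against 40.9% of all tested genes without overlap.

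Creld2 had 31.0, 31.4 and 31.1 CPM in lenti-shTCF7L2 libraries, against 27.5, 23.98 and 23.9 CPM in lenti-NC libraries. The 3 lenti-shTCF7L2 libraries were nearly equal and all above lenti-NC. Its log2 difference was 0.31 (SE 0.14, 95% interval -0.004 to 0.63, adjusted p = 0.320). Without lenti-TCF7L2 replicate 3, a library outside this comparison that enters the shared spread, the difference was 0.29 and passed (adjusted p = 0.0153). With only the 6 libraries compared, Creld2 (0.31, adjusted p = 0.00202) and Hspa5 (0.12, adjusted p = 0.0203) passed. In that fit 3294 of all 11553 genes tested passed. Hspa5 had 878, 904 and 874 CPM in lenti-shTCF7L2 libraries, against 826, 784 and 826 CPM in lenti-NC libraries. Its log2 difference in the fit of 9 libraries was 0.12 (95% interval -0.10 to 0.35, adjusted p = 0.652). Calr had 1155, 1168 and 1128 CPM in lenti-shTCF7L2 libraries, against 1191, 1111 and 1159 CPM in lenti-NC libraries, which overlap. The 95% interval of its log2 difference was -0.24 to 0.24. That for lenti-TCF7L2 against lenti-NC was 0.16 to 0.64 around 0.40, and these intervals overlap. Tcf7l2 itself differed by -0.43 (not called) with lenti-shTCF7L2 and by 1.97 with lenti-TCF7L2, so the sizes of the Calr differences are not matched.

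In lenti-TCF7L2 against lenti-shTCF7L2 cells, 3 of the 10 genes were higher and 1 lower. Calr, Pdia4 and Xbp1 were higher and Canx was lower, all 4 also called against lenti-NC, a comparison that shares the lenti-TCF7L2 libraries. Of all tested genes, 18.4% were higher and 14.7% lower, and groups did not overlap for 6 of the 10 genes, against 47.2% of all tested genes. The median log2 difference was 0.17, against 0.002 over all tested genes. Canx, with 669, 688 and 583 CPM in lenti-TCF7L2 and 910, 925 and 930 CPM in lenti-shTCF7L2 libraries, fell by 0.51 on the log2 scale (SE 0.08, 95% interval -0.68 to -0.34, adjusted p = 0.00101). This call was kept in every alternative run for it, the length adjustment included.

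Calr, with 1410, 1355 and 1796 CPM in lenti-TCF7L2 and 1155, 1168 and 1128 CPM in lenti-shTCF7L2 libraries, rose by 0.40 (SE 0.11, 95% interval 0.16 to 0.64, adjusted p = 0.0183). Without any 1 of the lenti-shTCF7L2 libraries its adjusted p was 0.0673 to 0.0692, and without lenti-TCF7L2 replicate 3 its difference was 0.26 (adjusted p = 0.00147). With only the 6 libraries compared, the adjusted p of Calr was 0.0645, that of Pdia4 0.0642 and that of Xbp1 0.109. Pdia4 rose by 0.27 (SE 0.07, adjusted p = 0.0185), and its call was lost without lenti-TCF7L2 replicate 1 (0.0545), lenti-shTCF7L2 replicate 1 (0.0861) or lenti-shTCF7L2 replicate 3 (0.0771). Xbp1 rose by 0.23 (SE 0.07, adjusted p = 0.0402), a call kept only without lenti-TCF7L2 replicate 2 or 3 among the 9 fits that left out a library, the other adjusted p being 0.0633 to 0.136, and lost with no filter on low counts (0.058). Creld2, with 34.9, 33.4 and 48.1 CPM in lenti-TCF7L2 and 31.0, 31.4 and 31.1 CPM in lenti-shTCF7L2 libraries, did not overlap but did not pass (log2 difference 0.32, 95% interval 0.005 to 0.63, adjusted p = 0.109). Creld2 thus ran highest in lenti-TCF7L2, intermediate in lenti-shTCF7L2 and lowest in lenti-NC libraries, with no overlap between any pair. Leaving out lenti-TCF7L2 replicate 2 brought Creld2 (0.41, adjusted p = 0.0368) and Sdf2l1 (0.55, adjusted p = 0.0252) past the threshold. Dnajb9 did not overlap either, at 34.7, 35.4 and 31.5 CPM in lenti-TCF7L2 and 36.2, 36.5 and 39.7 CPM in lenti-shTCF7L2 libraries (log2 difference -0.15, adjusted p = 0.193). Hspa5 (0.07), Hsp90b1 (0.12) and Herpud1 (0.04) had log2 differences that did not pass, and their groups overlapped.

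Together the 10 genes took 0.437%, 0.433% and 0.526% of all expected counts in lenti-TCF7L2, 0.426%, 0.439% and 0.425% in lenti-shTCF7L2, and 0.414%, 0.392% and 0.409% in lenti-NC libraries. Lenti-TCF7L2 replicate 3 held the largest share, and the other 2 lenti-TCF7L2 libraries lay within the lenti-shTCF7L2 range. The 5 tested genes outside the 10 whose log2 CPM followed Hspa5 most closely over the 9 libraries were RGD1311345, the proteasome subunit Psmd3, the coat protein Copz1 of Golgi vesicles, the proteasome subunit Psmc4 and the cytosolic HSP70 Hspa8. Their Pearson's r with Hspa5 was 0.986, 0.981, 0.974, 0.971 and 0.969 in that order, and Hsp90b1 itself reached 0.987. Without lenti-TCF7L2 replicate 3 these values were 0.945, 0.929, 0.895, 0.897 and 0.881, and 0.960 for Hsp90b1. The 9 points fall into 3 groups and share library depth, so r is given as a description.

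The rest of the pathway was read from 6 lists. Shares over all tested genes given beside the lists are from the fit of all 9 libraries. The number of genes called over all genes also changed between fits, as given for part of them in the last section. Of 33 other lumenal chaperones and folding enzymes tested, 9 rose and 1 fell in lenti-TCF7L2 against lenti-NC cells, with a median log2 difference of 0.195, against 18% higher and 13.8% lower of all tested genes. Cnpy3, a co-chaperone of Toll-like receptors, rose by 0.56 (SE 0.11, adjusted p = 0.00543) to 75.8 ± 10.9 CPM in lenti-TCF7L2, against 51.5 ± 4.09 CPM in lenti-NC libraries. Prkcsh, the beta subunit of glucosidase II that trims the sugars calnexin and calreticulin bind, rose by 0.52 (SE 0.11, adjusted p = 0.00790). Erp44 (0.36) and Fkbp7 (0.48), a thiol chaperone and a prolyl isomerase, also rose. Once lenti-TCF7L2 replicate 3 was left out the list had 8 higher and 4 lower, with a median of 0.04, and -0.003 with the length adjustment as well. The count of higher genes was 2 with only the 6 libraries compared or on leaving out any 1 lenti-NC library, 3 without lenti-TCF7L2 replicate 1 and 4 on leaving out any 1 lenti-shTCF7L2 library. Without lenti-TCF7L2 replicate 2 it was 15, with 4 lower. Over all genes, 3741 were called in this comparison with all 9 libraries and 2430 to 5503 with 1 library left out. With only the 6 libraries compared, 2321 of 11647 tested were called. In lenti-shTCF7L2 against lenti-NC cells edgeR called 0 of the 33, with 4 at an unadjusted p under 0.05 and 0 by DESeq2 or limma. Without lenti-TCF7L2 replicate 3 it called 1 higher and 5 lower, and with only the 6 libraries compared 4 higher and 6 lower. Over all genes it called 3294 of 11553 tested with only the 6 libraries, and 88 to 2056 in the fits that left out 1 library. In the fit of 9 libraries for lenti-shTCF7L2 against lenti-NC, P4hb, the founding disulfide isomerase, differed by -0.17 (adjusted p = 0.364). Serpinh1, the collagen chaperone, differed by -0.19 (adjusted p = 0.211). In lenti-TCF7L2 against lenti-shTCF7L2 cells 9 were higher and 1 lower, against 18.4% higher and 14.7% lower of all tested genes. Among the higher were Serpinh1 (0.39), P4hb (0.38), Txndc5 (0.35) and Cnpy3 (0.55). Of the 8 fibroblast markers, 4 were called higher and 0 lower in this comparison, and the part of cell make-up was not tested. The list of 33 had 9 higher and 4 lower there without lenti-TCF7L2 replicate 3 (median 0.06), and 9 higher and 8 lower with the length adjustment as well (median -0.01). It had 16 higher and 4 lower without lenti-TCF7L2 replicate 2, 6 higher without replicate 1, and 5 higher with only the 6 libraries compared or on leaving out any 1 lenti-shTCF7L2 library. Over all genes, 3890 of 11761 were called there, and 6021 of 11820 with the length adjustment and no lenti-TCF7L2 replicate 3.

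Of 10 genes of the PERK and ATF4 branch, 3 rose and 0 fell in lenti-TCF7L2 against lenti-NC cells (median 0.26). They were Atf4, the branch's transcription factor (0.40, SE 0.12, adjusted p = 0.0380), Atf3, a stress-induced factor (0.57, SE 0.13, adjusted p = 0.0112), and Chac1, which degrades glutathione (0.58, SE 0.17, adjusted p = 0.0271). Of all tested genes 18% were higher. The median of the 10 was 0.11 without lenti-TCF7L2 replicate 3, with 4 higher, and 0.08 with the length adjustment as well. The count of higher genes was 1 with only the 6 libraries compared, or without lenti-TCF7L2 replicate 1, lenti-NC replicate 1 or lenti-NC replicate 2, 2 without lenti-NC replicate 3 or any 1 lenti-shTCF7L2 library, and 5 without lenti-TCF7L2 replicate 2. In lenti-shTCF7L2 against lenti-NC cells 2 of the 10 rose and 1 fell (median 0.36), against 1.32% higher and 2.32% lower of all tested genes. Chac1 reached 13.1 ± 1.63 CPM in lenti-shTCF7L2, against 6.15 ± 1.10 CPM in lenti-NC libraries (log2 difference 1.09, adjusted p = 0.00975). Trib3, a pseudokinase induced by ATF4, reached 18.6 ± 0.473 CPM in lenti-shTCF7L2, against 8.64 ± 0.713 CPM in lenti-NC libraries (1.10, adjusted p = 0.0102). Ppp1r15b, a subunit of the phosphatase that restores translation, fell by 0.45 (adjusted p = 0.0150). With lenti-TCF7L2 replicate 3 left out, or with only the 6 libraries compared, 7 rose and 1 fell, and 3 rose without lenti-TCF7L2 replicate 2. Over all genes, 3294 of 11553 tested were called with only the 6 libraries, and 88 to 2056 in the fits that left out 1 library. Without lenti-shTCF7L2 replicate 2 no gene of the list was called, and 1 was higher without lenti-shTCF7L2 replicate 3, lenti-NC replicate 2 or lenti-NC replicate 3. None was lower once any 1 lenti-shTCF7L2 or lenti-NC library was left out. Between lenti-TCF7L2 and lenti-shTCF7L2 cells, 2 of the 10 were higher in lenti-TCF7L2 (Atf3 0.50, Ppp1r15b 0.33) and 3 lower, among them Trib3 (-0.88) and Sesn2 (-0.71), with a median of -0.04 and 18.4% higher and 14.7% lower of all tested genes. Without lenti-TCF7L2 replicate 3 these counts were 2 and 5 (median -0.23), and 2 and 6 with the length adjustment as well. Leaving out lenti-shTCF7L2 replicate 1 gave 0 higher and 2 lower, and leaving out its replicate 2, or lenti-TCF7L2 replicate 1, gave 1 and 1. With only the 6 libraries compared there were 2 higher and 1 lower, and the same held when lenti-NC replicate 1 or lenti-shTCF7L2 replicate 3 was left out.

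Of 9 sensors and proteases 1 rose in lenti-TCF7L2 against lenti-NC cells and 0 fell: Creb3l1, a membrane-bound factor released like ATF6, rose by 0.67 (SE 0.08, adjusted p = 4.95e-04) to 234 ± 22.5 CPM, against 147 ± 3.99 CPM in lenti-NC libraries. It was also the 1 gene of the list called in lenti-TCF7L2 against lenti-shTCF7L2 cells (0.48), where 2 others fell without lenti-TCF7L2 replicate 3. Of all tested genes, 18% were higher and 13.8% lower in lenti-TCF7L2 against lenti-NC cells, and 18.4% and 14.7% against lenti-shTCF7L2 cells. The shares in this list and those below were not tested against these. Of 19 genes of ER-associated degradation, 4 rose and 2 fell in lenti-TCF7L2 against lenti-NC cells (median -0.05), and 4 rose and 5 fell without lenti-TCF7L2 replicate 3. Without lenti-TCF7L2 replicate 2, 3 rose and 4 fell, 2 rose without lenti-shTCF7L2 replicate 1 or 2 or lenti-NC replicate 2 or 3, and 1 rose with only the 6 libraries compared. Edem2, a mannose-trimming enzyme (0.48), and Os9, a lectin that hands glycoproteins over for degradation (0.39), rose, whereas Herpud2 (-0.29) and Nploc4 (-0.47), a cofactor of the VCP extraction machine, fell. Ube2g2, a ubiquitin-conjugating enzyme, was the 1 gene of that list called in lenti-shTCF7L2 against lenti-NC cells (-0.45, adjusted p = 0.0138), a call lost on leaving out any 1 of the lenti-shTCF7L2 or lenti-NC libraries. Of all tested genes, 1.32% were higher and 2.32% lower there. Set against lenti-shTCF7L2 cells, lenti-TCF7L2 cells had 6 of the 19 higher and 2 lower, with Edem2 at 0.60, Os9 at 0.42, Ube2g2 at 0.36 and Ubxn4 at 0.34, and 6 were lower without lenti-TCF7L2 replicate 3. Over the fits that left out 1 library, 3 to 6 were higher and 0 to 6 lower, the 3 coming without lenti-shTCF7L2 replicate 1 or 3.

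Of 21 genes of the translocon and early transport, 3 rose and 0 fell in lenti-TCF7L2 against lenti-NC cells (median 0.14): Sec61b, a channel subunit (0.55), Kdelr3, a receptor that returns lumenal chaperones to the ER (0.31), and Tram1 (0.24). Of all tested genes, 18% were higher and 13.8% lower. With lenti-TCF7L2 replicate 3 left out, 4 of the 21 rose and 2 fell, and without replicate 2, 10 rose and 2 fell. The count of risers was 1 without lenti-TCF7L2 replicate 1 or lenti-NC replicate 2 or with only the 6 libraries compared, and 2 or 3 when lenti-NC replicate 1 or 3 or a lenti-shTCF7L2 library was left out. Over all genes, 2430 to 5503 were called in this comparison with 1 library left out, against 3741 with all 9. In lenti-TCF7L2 against lenti-shTCF7L2 cells, 18.4% of all tested genes were higher and 14.7% lower. Of the 21, 3 were higher there (Kdelr1 0.40, Sec61b 0.42, Kdelr3 0.27) and 1 lower (Ssr1 -0.34). None was higher without lenti-TCF7L2 replicate 1, on leaving out any 1 lenti-shTCF7L2 library or with only the 6 libraries compared. Counts were 3 higher and 3 lower without lenti-TCF7L2 replicate 3 or with the length adjustment, and 6 and 4 without lenti-TCF7L2 replicate 2. Of 15 cytosolic and mitochondrial chaperones, taken as a contrast outside the ER, 3 rose and 3 fell against lenti-NC (median -0.03), with Hsph1 (0.48) and Dnajb1 (0.38) higher and the mitochondrial Hspa9 (-0.57) and the cytosolic Hspa4 (-0.39) lower, and 5 fell without lenti-TCF7L2 replicate 3. The contrast with lenti-shTCF7L2 cells had 1 higher (Hsph1 0.52) and 3 lower (Hspa9 -0.67, Hsp90aa1 -0.35, Hspa4 -0.29), and 7 were lower without lenti-TCF7L2 replicate 3. In lenti-shTCF7L2 against lenti-NC cells edgeR called 0 of the sensors, the translocon list and the cytosolic list, with 1, 4 and 0 genes at an unadjusted p under 0.05. DESeq2 called 0, 2 and 0 of them and limma 0, 1 and 0, and without lenti-TCF7L2 replicate 3 edgeR called 0, 4 and 0. With only the 6 libraries compared edgeR called 2 of 9, 6 of 21 and 5 of 15, against 3294 of all 11553 genes tested in that fit. Over all genes, 88 to 2056 were called in the fits of this comparison that left out 1 library. The most abundant of these genes there were Mbtps1 (0.03) and Creb3l1 (0.19), Sec31a (-0.05) and Sec61a1 (0.02), and Hspa8 (0.11) and Hsp90ab1 (0.15).

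**Figure D5:**
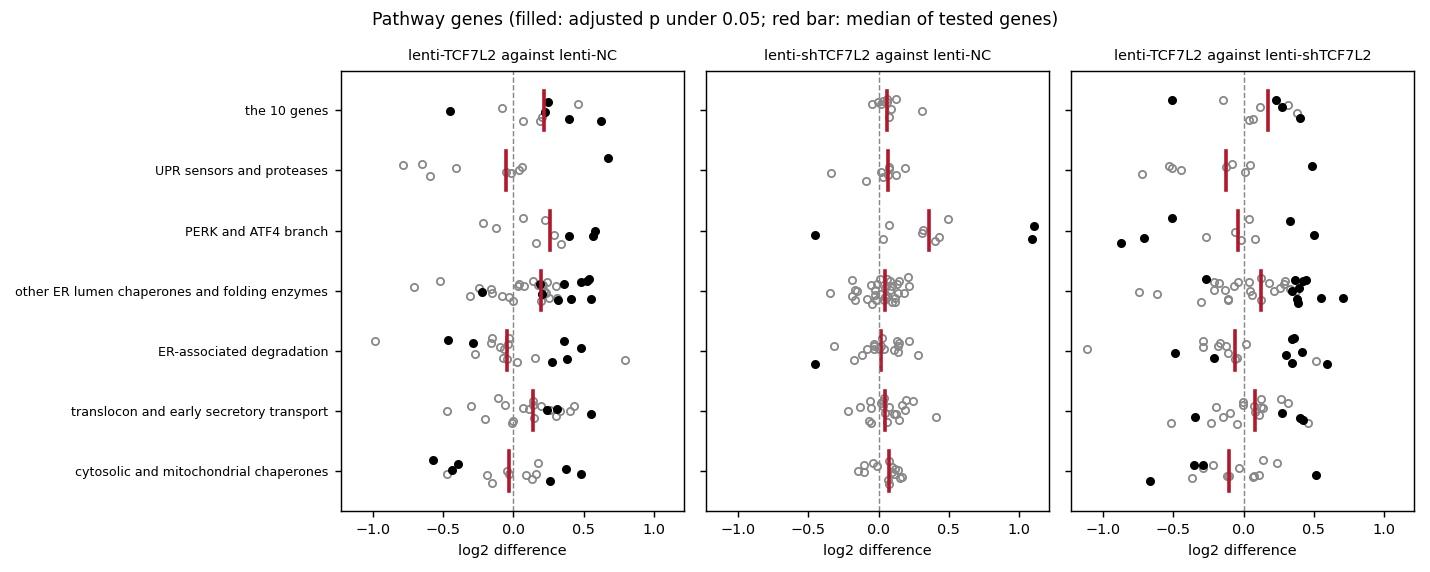
Log2 differences (x axis) of the 10 genes and of 6 pathway lists (rows) in the 3 comparisons; each point is 1 gene, filled where the adjusted p is under 0.05, and red bars are medians. Filled points lie mostly right of 0 for the lumenal chaperones in both lenti-TCF7L2 comparisons (9 of 10 called in each); without lenti-TCF7L2 replicate 3 the list has 8 higher and 4 lower against lenti-NC, and 9 higher and 4 lower against lenti-shTCF7L2 (9 and 8 with the length adjustment as well). The PERK and ATF4 list holds the 2 largest differences of lenti-shTCF7L2 against lenti-NC, Trib3 and Chac1.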

How the data were processed

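Gene expression was measured by poly(A) RNA sequencing on the BGISEQ-500 platform in 9 libraries, 3 for each lentivirus, per the labels' protocols. For each library the authors deposited a table that lists, per the file headers, expected counts of fragments, FPKM values (fragments per kilobase, scaled to library size) and the gene length in bases. The submitters' processing notes name HISAT2, Bowtie2, RSEM 1.3.1, DESeq2 1.4.5 and the build rn6; what each did, and the strand setting, are not given in the sources used here. Genes absent from a library's table were set to 0.

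Expected counts were rounded to whole numbers and tested with edgeR 4.0.16 in R 4.3.3 (quasi-likelihood test, 2-sided, TMM scaling, 1 fit of all 9 libraries with group as the only term, 6 residual degrees of freedom). Its filter on low counts kept 11761 of 14607 genes, all 10 described genes among them; 2846 were set aside. Called means a Benjamini-Hochberg adjusted p under 0.05 over all tested genes, and groups do not overlap where every CPM (counts scaled by TMM to a common library size) of one group is above every CPM of the other. The biological coefficient of variation was 14.9%, which limits the precision beyond the depth of 15085922 to 16478295 counts. Alternatives were RLE scaling, no filter, DESeq2 1.42.0, limma 3.58.1 on log2(FPKM + 1) or log2(FPKM + 0.1), for genes with a mean FPKM of at least 1 or all, the replicate number as a block, only the 6 libraries compared, each library left out, and a length adjustment (a lowess trend of log2 count on log2 length per library, span 0.3), also without lenti-TCF7L2 replicate 3. Counts over the pathway lists under these alternatives were added after seeing the data. The procedure was tested on simulated data with the same spread for every gene and no length trend. That test therefore does not cover a library such as lenti-TCF7L2 replicate 3.

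The 10 genes, the pathway and marker lists and the tests were chosen with earlier results of these data known. Genes named from a list are up to 4 called genes with the smallest adjusted p, or, where none was called, the 2 with the highest mean CPM. Genes likest Hspa5 are the 5 with the highest Pearson's r of log2 CPM (prior count 2) among tested genes averaging at least 50 counts. Promoter sequences come from RefSeq (GRCr8) and were matched by gene ID; no coordinate of rn6 is given. Some genes on the pathway lists are not reported here.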

Additional observations from a re-analysis of the deposited data

How the results depend on the processing

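Of the 10 genes, 5 were called in lenti-TCF7L2 against lenti-NC; 3 were with the replicate block, 2 with only the 6 libraries compared, 2 with the length adjustment and 2 to 6 when a library was left out. For lenti-shTCF7L2 against lenti-NC 0 were called, but 2 with only the 6 libraries, 2 with the length adjustment and no lenti-TCF7L2 replicate 3, and 0 to 1 with a library left out. For lenti-TCF7L2 against lenti-shTCF7L2 4 were called, 1 with only the 6 libraries and 1 to 6 with a library left out. Over all genes, 3741 were called in lenti-TCF7L2 against lenti-NC, 2321 with only the 6 libraries and 2430 to 5503 with a library left out. In lenti-shTCF7L2 against lenti-NC 428 were called, 651 by DESeq2, 244 with the replicate block, 3294 with only the 6 libraries, 2600 with the length adjustment and no lenti-TCF7L2 replicate 3, and 88 to 2056 with a library left out. In lenti-TCF7L2 against lenti-shTCF7L2 3890 were called, and 6021 with the length adjustment and no lenti-TCF7L2 replicate 3. The causes were not tested.

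Signs changed only for genes that were not called. In lenti-TCF7L2 against lenti-NC the log2 difference of Herpud1 was -0.0709 with the length adjustment and no lenti-TCF7L2 replicate 3, and -0.0213 to 0.12 with a library left out. In lenti-shTCF7L2 against lenti-NC that of Calr was 0.0276 in each of the limma fits, 0.0065 with the length adjustment, 0.0046 with it and no lenti-TCF7L2 replicate 3, and -0.0303 to 0.0192 with a library left out. In lenti-TCF7L2 against lenti-shTCF7L2, with the length adjustment and no lenti-TCF7L2 replicate 3, Hspa5 was at -0.10, Hsp90b1 at -0.0753 and Herpud1 at -0.11, and Herpud1 at -0.0242 with the length adjustment; with a library left out they ran from -0.0613 to 0.12, -0.0252 to 0.18 and -0.038 to 0.0866. Whether the replicate numbers pair the libraries cannot be settled with 3 libraries per group. Residuals of same-numbered libraries correlated at -0.067 to 0.151, with 2 of 9 over 0.1, and those of differently numbered libraries at -0.159 to 0.111. Among the 10 genes the block ended the calls of Xbp1 and Pdia4 against lenti-NC and of Xbp1 against lenti-shTCF7L2. Creld2, with 356 to 805 expected counts per library, was the least counted of the genes called, so its counting error is the largest among them.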
